A study of Mus musculus with 20 samples.

Results

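The genes described here are 10 components of the Notch pathway: the receptors Notch1, Notch2 and Notch3, the ligands Dll1, Dll3, Jag1 and Jag2, and the modulators Lfng, Dtx4 and Maml2. They were found by their gene symbol among the 37561 genes shared by all deposited tables, and all 10 were among the 13608 genes past the filter on low values, a typical log2 normalised count of at least 4. Transcripts were measured by RNA-seq in 2 lines of ESD3, a mouse embryonic stem cell line of strain 129s2/SvPas maintained on mouse embryo fibroblast feeders. The control line carried an shRNA against luciferase, a gene that mouse cells lack, and the HPRT knockdown line an shRNA against HPRT, an enzyme of purine salvage. Both had been infected with virus (retrovirus by the sample labels, a lentiviral vector by the methods of the study) and selected with puromycin, and both were differentiated toward dopaminergic neurons as spherical neural masses. RNA was collected daily from day 0 to day 4 and every other day from then to day 14, 10 days in all, with 1 library per line and day. Each arm is therefore 1 line made once, with the RNA of a day pooled according to the methods, and the days are successive collections of it rather than independent cultures. Errors below are SDs over the 9 days tested (all but day 6), and p-values measure the spread between days only.

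In the Notch pathway a ligand on one cell binds a receptor on its neighbor, the receptor is cut first by an ADAM protease and then by gamma-secretase, and the freed intracellular domain joins the DNA-binding protein Rbpj and a Mastermind co-activator to switch on genes of the Hes and Hey families. In the developing nervous system this signal keeps progenitors from becoming neurons all at once, while the cells that start to become neurons carry Delta ligands under the control of proneural factors. Fringe enzymes such as Lfng add a sugar to the receptor and change which ligand it answers to, Dtx4 is a ubiquitin ligase of the Deltex family, and Maml2 is one of the Mastermind co-activators. Dll3 acts on receptors of its own cell.

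Read counts were recovered from the deposited log2 values, as described under the processing. The recovered reads of a library summed to between 5542650 and 10832800 reads, a lower bound on its depth since 9883 of the 13608 genes could be recovered. The 10 Notch genes had between 63.7 reads (Jag2) and 4003 reads (Notch3) in a library, so that counting error alone gave the log2 ratio of a single day a standard error of between 0.04 and 0.20. The targeted gene, Hprt (chromosome X, 50341314 to 50374836, NCBIM37), had 543 to 924 normalised reads in the control line over the 9 days (median 673) and 20.9 to 143 in the knockdown line (median 39.1), and was lower on all 10 days. The libraries of day 6 stood apart from their neighbors: the ratio of 43.7% of all genes on that day lay outside the range of the other 9 days. Day 6 was left out of the tests, as in the pathway analysis of the study, and is given separately.

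Of the 10 Notch genes, 6 differed between the lines through the course (limma on the ratios of 9 days, Benjamini-Hochberg adjusted p under 0.05), against 52.5% of all genes tested. A share of 6 in 10 is thus near that of all genes. Notch1, Lfng and Maml2 were higher in the knockdown line, where 26.2% of all genes were, and Jag2, Dll1 and Dtx4 were lower, where 26.3% were. The other 4 genes, Notch2, Notch3, Dll3 and Jag1, did not pass. The median of the 10 mean ratios was 0.18, against 0.01 over all genes. The study itself had singled out Jag2, Dtx4, Notch2, Lfng and Maml2 on these samples, so that the directions of these genes are not independent evidence here.

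**Figure D1:**
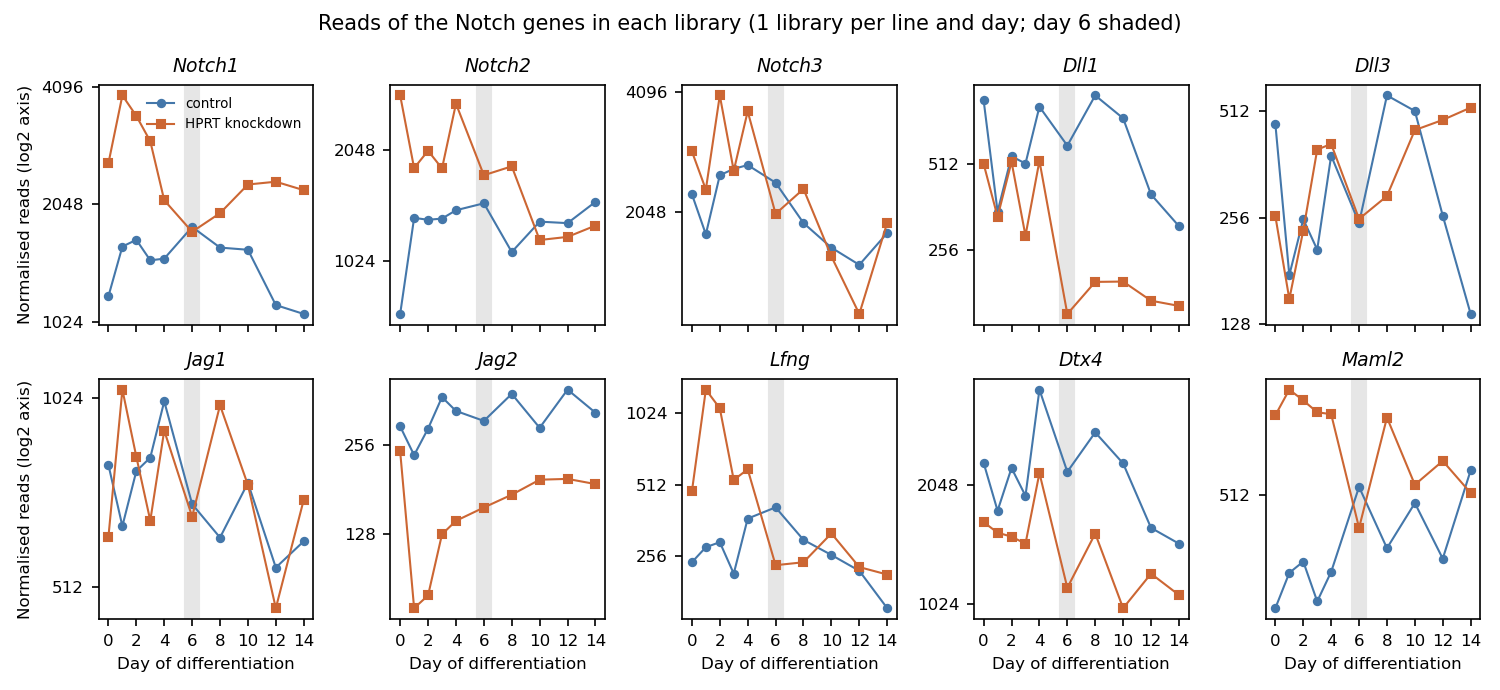
Normalised reads of each of the 10 Notch genes (log2 axis) against the day of differentiation, with 1 point per library, circles for the control line and squares for the HPRT knockdown line. Day 6 is shaded and was not tested; Notch1 is the one gene whose knockdown libraries all lie above its control libraries over the other 9 days.

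Notch1 (chromosome 2, 26313423 to 26372183, minus strand, NCBIM37), the receptor most studied in neural progenitors, had 1072 to 1661 normalised reads in the control line, with a median of 1486. In the knockdown line it had 1945 to 3902, with a median of 2343. The lowest knockdown library therefore lay above the highest control library, a separation found for 4.53% of all genes and, in the upward direction, for 2.99%. The mean log2 ratio of the knockdown over the control was 0.89 ± 0.34 (SD, n = 9 days), a 1.85-fold difference that was positive on 9 of 9 days (limma, adjusted p = 0.000222). The ratio was largest on day 1, at 1.27, and smallest on day 8, at 0.31. Notch1 kept its call in all 19 alternative settings, with adjusted p between 8.93e-05 and 0.0134.

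Notch2 (chromosome 3, 97817461 to 97954290, plus strand) had 735 to 1479 normalised reads in the control line (median 1322) and 1166 to 2870 in the knockdown line (median 1825). The ranges overlapped, because from day 10 on the receptor was slightly lower in the knockdown line. Day 0 is set apart here. On that day the control library held 735 and the knockdown library 2870 normalised reads, respectively the lowest and the highest value of the gene over the 9 days, and the log2 ratio was 1.98. A higher ratio on day 0 was found for 414 of the 13608 genes, or 3.04%. The ratio was 0.42, 0.63, 0.45 and 0.96 over days 1 to 4. It was 0.79 on day 8, and -0.16, -0.13 and -0.21 on the last 3 days. Averaged over the 9 days it came to 0.53 ± 0.69 (SD), which missed the threshold (limma, adjusted p = 0.0595). Without day 0 it was 0.34 ± 0.46 (SD, n = 8 days; limma, adjusted p = 0.083). Without the pairing of the libraries by day the gene passed (adjusted p = 0.0285), as it did in 6 of the 19 alternatives, whose adjusted p ranged from 0.0285 to 0.12.

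The ratio on day 0 also moved with the length of transcripts. Among genes with a summed exon length of 8 kb and over, the median log2 ratio on day 0 was 0.44 (1527 genes), and among genes under 1.5 kb it was -0.48 (1220 genes). On the other 8 tested days no median of a length class was larger than 0.115 in size. All 3 receptors fall in the longest class, with summed exon lengths of 14.2 kb for Notch1, 10.5 kb for Notch2 and 8.04 kb for Notch3. With the ratios of each day centered within the classes, an alternative chosen after seeing the data, the ratio on day 0 was 0.71 for Notch1 (1.15 before), 1.54 for Notch2 and -0.07 for Notch3 (0.37 before). Notch1 was then under 2-fold on that day, and Notch3 changed sign. The mean of Notch2 over the 9 days was then 0.45 and its adjusted p 0.0497, just past the threshold. The part of transcript length in the day 0 values of the receptors was not tested further.

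**Figure D2:**
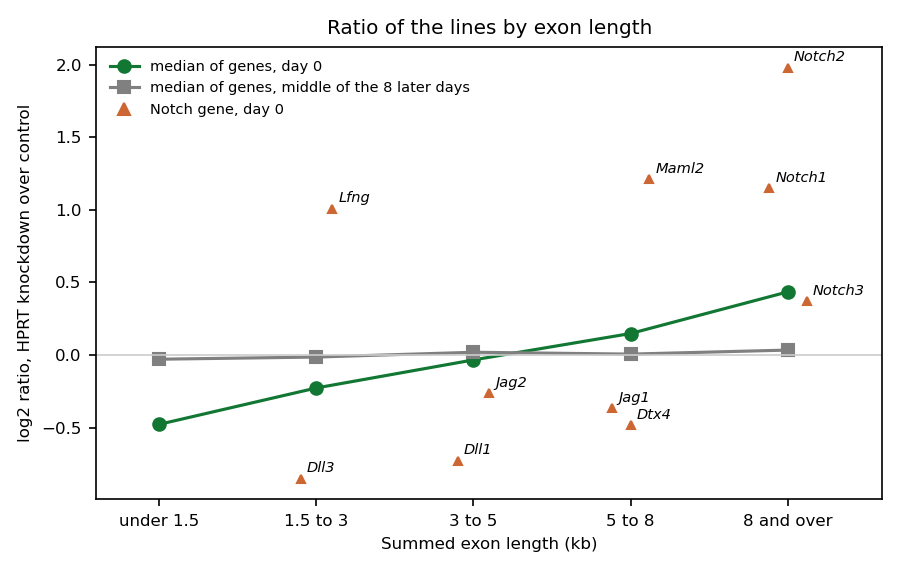
Log2 ratio of the HPRT knockdown over the control by class of summed exon length (kb), with circles for the median of all genes in a class on day 0, squares for the middle value of those medians over the 8 later days, and triangles for the 10 Notch genes on day 0. The day 0 median climbs from -0.48 in the shortest to 0.44 in the longest class, while Notch2 stands at 1.98.

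Notch3 (chromosome 17, 32257765 to 32303825, minus strand) did not differ beyond the spread between days. It had 1509 to 2682 normalised reads in the control line (median 1920) and 1137 to 4005 in the knockdown line (median 2337), with a mean ratio of 0.19 ± 0.33 (SD, n = 9 days; limma, adjusted p = 0.16). The largest ratio was 0.67, on day 2, and the smallest was -0.42, on day 12. It passed in 1 of the 19 alternatives, that without day 12 (adjusted p = 0.042).

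The promoter sequences below are shown for the 4 genes that differed most, the pair with the largest rise and the pair with the largest fall among those past the threshold. They are RefSeq windows of 300 bases on GRCm38.p6, a later build than the NCBIM37 of the gene positions, from 250 bases before to 50 after a listed start, written 5′ to 3′ on the strand of the gene. Capitals mark 2 kinds of 6-base words searched on both strands: TGGGAA or its reverse complement TTCCCA, the core bound by Rbpj, and CANNTG, the E-box bound by proneural factors and other basic helix-loop-helix proteins. The windows lie at chr2:26503773-26504072 (minus strand) for Notch1, chr5:140607091-140607390 (plus strand) for Lfng, chr12:112929446-112929745 (minus strand) for Jag2, and chr17:15375774-15376073 (minus strand), the first of its 2 listed windows, for Dll1.
Notch1: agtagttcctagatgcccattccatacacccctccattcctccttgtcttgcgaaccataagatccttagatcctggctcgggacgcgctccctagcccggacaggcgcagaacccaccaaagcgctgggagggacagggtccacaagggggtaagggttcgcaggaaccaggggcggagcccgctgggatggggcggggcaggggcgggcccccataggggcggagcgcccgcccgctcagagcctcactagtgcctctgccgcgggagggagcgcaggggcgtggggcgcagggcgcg
Lfng: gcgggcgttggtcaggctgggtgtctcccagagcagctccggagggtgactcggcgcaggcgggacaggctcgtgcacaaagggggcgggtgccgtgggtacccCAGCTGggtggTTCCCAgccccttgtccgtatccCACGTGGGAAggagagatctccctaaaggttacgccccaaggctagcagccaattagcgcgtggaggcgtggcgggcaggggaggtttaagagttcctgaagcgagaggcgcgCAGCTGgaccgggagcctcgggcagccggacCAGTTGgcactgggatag
Jag2: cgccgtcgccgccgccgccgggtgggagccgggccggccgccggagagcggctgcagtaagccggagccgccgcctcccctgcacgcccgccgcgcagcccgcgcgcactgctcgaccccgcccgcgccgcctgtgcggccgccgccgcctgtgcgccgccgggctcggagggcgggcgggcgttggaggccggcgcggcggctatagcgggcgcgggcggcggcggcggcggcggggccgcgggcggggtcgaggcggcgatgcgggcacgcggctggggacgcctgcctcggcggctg
Dll1: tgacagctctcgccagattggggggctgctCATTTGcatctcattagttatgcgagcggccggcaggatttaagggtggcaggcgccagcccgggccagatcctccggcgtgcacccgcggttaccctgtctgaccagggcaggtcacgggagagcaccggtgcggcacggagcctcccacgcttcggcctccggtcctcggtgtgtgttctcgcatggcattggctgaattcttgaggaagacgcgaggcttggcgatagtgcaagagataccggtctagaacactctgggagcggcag

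The Rbpj core occurs in 25.6% and the E-box in 72.3% of the 32851 listed mouse promoter windows. The Lfng window held 2 Rbpj cores and 4 E-boxes, and the second core overlaps an E-box. The Dll1 window shown held 1 E-box and its other window 3. The windows of Jag2 and Notch1 held neither word, which says only that these letters are not in these 300 bases. In all, 9 of the 10 genes had at least 1 window, and of the 11 windows 2 held the Rbpj core and 7 an E-box. The table held no window for Dtx4.

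Jag2 (chromosome 12, 114146801 to 114167706, minus strand), a ligand of the Serrate type, was the gene with the largest mean difference. It had 237 to 395 normalised reads in the control line (median 329.8) and 71.9 to 244 in the knockdown line (median 174). The ranges overlapped only through the knockdown library of day 0, at 244, which lay above the control library of day 1, at 237. The knockdown library of day 1 held 71.9. The mean log2 ratio was -1.13 ± 0.54 (SD, n = 9 days), a 2.18-fold lower level that was negative on 9 of 9 days (limma, adjusted p = 0.000507). The ratio was smallest in size at the start, at -0.26, went to -1.75 and -1.88 over the next 2 days, and ended at -0.79. The tables of Jag2 disagreed by up to 0.03 on the log2 scale, so its reads are whole multiples of the counting unit in 6 libraries only (days 4, 6 and 8) and approximate in the others.

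Dll1 (chromosome 17, 15504318 to 15513836, minus strand), the Delta ligand of newly forming neurons, had 309.6 to 892 normalised reads in the control line, with a median of 545. In the knockdown line it had 162 to 525, with a median of 287. The ratio stayed close to 0 on days 1 and 2, at -0.08 and -0.05, and reached -2.16 on day 8 and -1.90 on day 10. From day 8 on the knockdown libraries held 162 to 198 reads, whereas the control libraries held 892, 741, 400.1 and 309.6. The mean ratio was -0.95 ± 0.72 (SD, n = 9 days), a 1.94-fold lower level, negative on 9 of 9 days (limma, adjusted p = 0.00525).

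Jag1 (chromosome 2, 136907192 to 136942380, minus strand), the other Serrate-type ligand, had nearly equal medians, 749 normalised reads in the control and 743 in the knockdown line. The control libraries ranged from 549 to 1011 and the knockdown libraries from 473 to 1056. Its mean ratio was 0.07 ± 0.41 (SD, n = 9 days; limma, adjusted p = 0.665), with 4 days above and 5 below 0.

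Dll3 (chromosome 7, 29076673 to 29087257, minus strand) changed sign several times during the course. It had 137 to 566 normalised reads in the control line (median 259) and 151 to 523 in the knockdown line (median 398). On day 8 the control library held 566 and the knockdown library 294.5, and on day 14 these were 137 and 523. The ratio stood at -0.85 (day 0), 0.94 (day 3), -0.92 (day 8), 0.89 (day 12) and finally 1.94. Opposite days cancelled in the mean of 0.18 ± 0.93 (SD, n = 9 days), and the gene did not pass (limma, adjusted p = 0.618).

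Lfng (chromosome 5, 141083295 to 141091497, plus strand), the Fringe enzyme, was higher in the knockdown line mainly at the start. It had 154 to 368 normalised reads in the control line (median 259) and 214 to 1290.2 in the knockdown line (median 479.7). The knockdown libraries of days 0, 1 and 2 held 479.7, 1290.2 and 1076, while the control libraries held 241, 279 and 293. From day 8 on the knockdown libraries held 214 to 319, inside the control range. The ratio went from 2.19 (day 1) through 0.69 (day 4) to -0.29 (day 8), and averaged 0.85 ± 0.83 (SD, n = 9 days; limma, adjusted p = 0.0177). With day 6 kept the mean was 0.68 and the gene no longer passed (adjusted p = 0.0624).

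Maml2 (chromosome 9, 13424434 to 13513832, plus strand), the Mastermind co-activator, had 314 to 569 normalised reads in the control line (median 384) and 516 to 806 in the knockdown line (median 722). Its ratio was nearly constant over days 0 to 4, between 0.98 and 1.21, and was 0.83, 0.12, 0.60 and -0.13 over the last 4 days. The mean was 0.77 ± 0.48 (SD, n = 9 days; limma, adjusted p = 0.00223).

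Dtx4 (chromosome 19, 12540831 to 12576486, minus strand), the Deltex ubiquitin ligase, had 1454 to 3551 normalised reads in the control line (median 2254) and 1001 to 2189 in the knockdown line (median 1515). The difference was moderate and steady, with a mean ratio of -0.58 ± 0.30 (SD, n = 9 days) that was negative on 9 of 9 days (limma, adjusted p = 0.00116). It was smallest on day 1, at -0.21, and largest on day 10, at -1.20. Notch1, Dll1, Jag2 and Dtx4 were the 4 genes whose ratio had 1 sign on all 9 days, which 29.2% of all genes did. Positive on all 9 days, like Notch1, were 14.1% of all genes, and negative on all 9, like the other 3, were 15.2%.

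The number of Notch genes at least 2-fold apart on a single day went from 4 at the start to 2 at the end. On each of days 0 to 3 it was 4 of 10, against 19.1%, 23%, 16.5% and 16.9% of all genes. It was 1 on day 4 (15.4% of all genes) and 1 on day 6 (12.4%), 2 on day 8 (14.7%) and 2 on day 10 (21.1%), 3 on day 12 (19.4%) and 2 on day 14 (20.1%). On days 1, 2 and 3 they were Notch1, Jag2, Lfng and Maml2 each time. On day 0 they were Notch1, Notch2, Lfng and Maml2, and on day 14 Notch1 and Dll3.

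**Figure D3:**
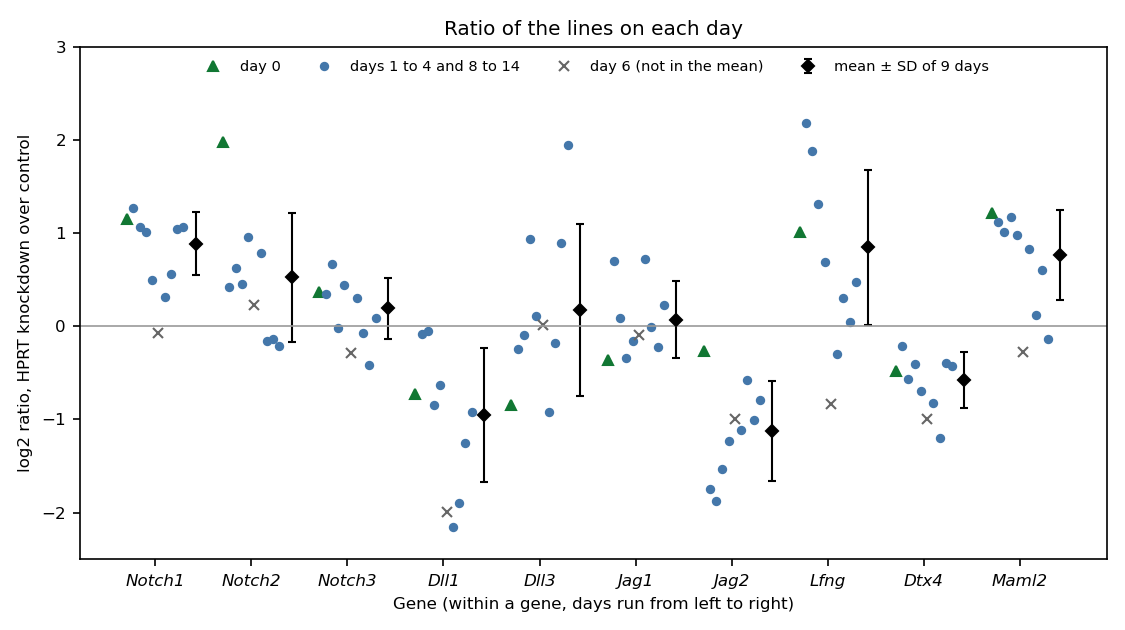
Log2 ratio of the HPRT knockdown over the control for each of the 10 Notch genes, with 1 symbol per day running from left to right (triangle for day 0, circles for days 1 to 4 and 8 to 14, cross for day 6) and a diamond with bars for the mean ± SD of the 9 days tested. Notch1 lies above 0 and Dll1, Jag2 and Dtx4 below 0 on all 9 days, and the cross of day 6 lies under the other days for Notch1, Lfng and Maml2.

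Between genes, levels can be compared only per length. In normalised reads per kb of summed exon length, Dtx4 had the highest median in the control line (391), followed by Notch3 (239). The medians of Dll1, Jag1, Notch2, Lfng and Notch1 lay between 104 and 129, and their ranges over the days overlapped. Dll3, Jag2 and Maml2 followed at 90.1, 81.3 and 64.1. In the knockdown line Notch3 (290.5) and Dtx4 (263) had the highest medians per kb, followed by Lfng (210.2) and Notch2 (174), and Jag2 had the lowest (42.9). In both lines each gene's range over the days overlapped that of the next gene in the order of medians.

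Whether the difference between the lines changed over the course was asked by the slope of the ratio on day. Maml2 passed, where 14% of all genes did and 6.61% with a negative slope, with a slope of -0.08 ± 0.02 log2 units per day (SE; limma, adjusted p = 0.0159). Within each line Maml2 rose in the control line, by 0.05 log2 units per day (limma, adjusted p = 0.00821), and fell in the knockdown line, by 0.04 per day (adjusted p = 0.0327). The slopes of the ratio of Lfng (-0.12, adjusted p = 0.0645) and Notch2 (-0.10, adjusted p = 0.0605) missed the threshold. A comparison of days 8 to 14 with days 1 to 4 called none of the 10 genes by limma, against 2.39% of all genes, although the unadjusted p was under 0.05 for Dll1, Jag2, Lfng and Maml2. The mean ratio of Dll1 was -0.40 ± 0.40 (SD, n = 4 days) early and -1.56 ± 0.57 late (adjusted p = 0.0888). That of Jag2 was -1.60 ± 0.28 early and -0.87 ± 0.24 late (adjusted p = 0.0738). That of Lfng was 1.52 ± 0.66 early and 0.13 ± 0.34 late (adjusted p = 0.0698).

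In the control line Maml2 was the one gene of the 10 with a time trend past the threshold, against 43.6% of all genes, 19.7% upward. In the knockdown line 4 of the 10 passed, against 13.1% of all genes. These were Lfng with a slope of -0.16 log2 units per day (limma, adjusted p = 0.0249), Dll1 with -0.13 (adjusted p = 0.0171), Notch2 with -0.08 (adjusted p = 0.0347) and Maml2. All 4 fell, where 5.53% of all genes did. Without day 14, or without day 12, none of the 10 passed in the knockdown line; 1 did without day 2 (Dll1) and 2 did without day 10. The slopes join tables that had been normalized separately.

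Steps between consecutive days are single differences between 2 libraries and were not tested. Of 90 steps in the control line 3 were at least 2-fold (3.33%), against 6.26% of the steps of all genes, and of 90 steps in the knockdown line 5 were (5.56%), against 10% for all genes. In the control line these were the steps of Dll1 (log2 step -1.31) and Dll3 (-1.43) from day 0 to day 1 and that of Dll3 from day 6 to day 8 (1.22). In the knockdown line they were the steps of Jag2 (-1.74) and Lfng (1.44) from day 0 to day 1, a downward step of Lfng just past 2-fold from day 2 to day 3, and those of Dll1 (-1.79) and Lfng (-1.34) from day 4 to day 6. Jag2 and Lfng thus moved in opposite directions in the knockdown line on leaving day 0, and Dll1 in that line held 152 to 198 normalised reads from day 6 on.

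On day 6 the ratios of Notch1 (-0.07), Lfng (-0.84) and Maml2 (-0.28) lay below all of their other 9 values, and those of the other 7 genes within them. Of all genes, 43.7% lay outside. Lfng held 411 normalised reads in the control and 234 in the knockdown library, and Maml2 held 530.1 and 444. Dll1 was at -1.99, close to its values of days 8 and 10. Some marker lists moved on day 6 as well. The median ratio of 10 pluripotency markers was 0.26, whereas on the other days it lay between -7.43 and -0.94, and Pou5f1 held 5168 normalised reads in the knockdown library of day 6 and at most 1487 in the others. The median ratio of 8 astrocyte markers was -1.05, against 0.29 to 1.88 on the other days. Progenitor and radial glia markers (-0.71, against -0.18 to 0.42) and endothelial markers (0.34, against -1.86 to 0.26) also lay outside. The medians of neuron, oligodendrocyte, endoderm, fibroblast, mural and neural crest markers lay within their range of the other days. The part of these shifts in the day 6 values was not tested.

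For the 2 genes with the largest mean difference, the most similar profiles over the 18 libraries of the 9 days were listed as a description. Jag2 was most like Fam123b (Pearson r = 0.96), Rps6kl1 (0.94) and Dgkd (0.94), all 3 of which were also lower in the knockdown line, with mean ratios of -0.94, -1.37 and -0.52. Dll1 was most like Spsb4 (0.94), LOC100502670 (0.92) and Aoc2 (0.91), with mean ratios of -0.98, -1.13 and -0.31, of which that of Aoc2 did not pass (limma, adjusted p = 0.0792). The points share their libraries and the separation of the lines.

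The rest of the pathway was followed through 6 lists of 77 genes, of which 73 were in the tables and 66 past the filter. Of these 66, 21 were higher and 16 lower in the knockdown line, or 56.1% called, against 52.5% of all genes, with a median ratio of 0.06. Differences between the lists were not tested. Of 9 genes of receptor cleavage, 6 were higher and none was lower, where 26.2% and 26.3% of all genes were, with a median ratio of 0.32; among them were the gamma-secretase subunits Aph1b (0.96 ± 0.19), Aph1c (0.64 ± 0.54), Psen2 (0.52 ± 0.35), Ncstn (0.32 ± 0.14) and Aph1a (0.26 ± 0.24) and the protease Adam17 (0.37 ± 0.29; all SD, n = 9 days). Psenen and Adam10 did not pass, with mean ratios of 0.22 and 0.16. Of 7 genes of receptor maturation and sugar modification, Furin (0.68 ± 0.20), Pofut1 (0.24 ± 0.15) and Gxylt2 (0.64 ± 0.73) were higher, and Mfng, a Fringe enzyme like Lfng, was lower (-1.04 ± 0.87).

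Of 21 nuclear partners 4 were higher and 8 lower, or 57.1% called, near the 52.5% of all genes. Rbpj, the DNA-binding protein of the pathway, had 537 to 905 normalised reads in the control line (median 691) and 321 to 651 in the knockdown line (median 577). Its mean ratio was -0.50 ± 0.24 (SD, n = 9 days; limma, adjusted p = 0.00112), negative on 9 of 9 days. The Groucho-type co-repressor Tle2 was the largest riser of the list (1.44 ± 0.71). Of 17 genes of ligand endocytosis and receptor turnover 5 were higher and 3 lower, or 47.1% called, also near the share of all genes. Neurl1a, a Neuralized ubiquitin ligase, fell most in that list (-1.08 ± 0.77). Of 6 other receptors and ligands 33.3% were called. Cntn1, a contactin, was higher (2.39 ± 2.01) and Notch4 lower (-0.66 ± 0.77; limma, adjusted p = 0.0369). Dll4 (0.18 ± 0.92) and Dlk1 (-1.28 ± 1.88) did not pass, the latter with ratios of -4.12, -2.99 and -3.85 on days 10, 12 and 14 and between -1.04 and 0.47 before.

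Targets of the pathway went in both directions. Of 6 tested, 2 were higher and 3 lower, where 26.2% and 26.3% of all genes were. Hey1 had 205 to 376 normalised reads in the control line (median 272) and 499 to 870.1 in the knockdown line (median 676), without overlap. The lines did not overlap for 4.53% of all genes, and for 2.99% with the knockdown higher. The mean ratio of Hey1 was 1.22 ± 0.47 (SD, n = 9 days; limma, adjusted p = 0.000183). Hes5 had 124 to 531 normalised reads in the control line (median 319) and 54.7 to 443 in the knockdown line (median 139). Its mean ratio was -0.99 ± 1.02 (SD, n = 9 days; limma, adjusted p = 0.0219), and like Dll1 it was furthest apart on day 8, at -3.26. Hes1, at medians of 414 and 369, did not pass (0.05 ± 0.47; adjusted p = 0.802). Hey2 was higher (1.14 ± 1.22), and Heyl (-1.05 ± 1.16) and Nrarp (-0.71 ± 0.61) were lower. The mean ratios of days 1 to 4 and of days 8 to 14 were 0.19 and 2.24 for Hey2. For Heyl these were -1.95 and -0.40.

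Proneural and neurogenic factors were mostly lower. Of 8 tested, 6 were lower and 1 was higher, where 26.3% and 26.2% of all genes were, and the median ratio was -1.39. Hes6 did not pass (-0.39 ± 0.60). The largest falls were those of Neurog1 (-3.60 ± 1.44), Neurod4 (-3.06 ± 1.73) and Mycn (-2.46 ± 1.23; all SD, n = 9 days), each negative on 9 of 9 days.

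**Figure D4:**
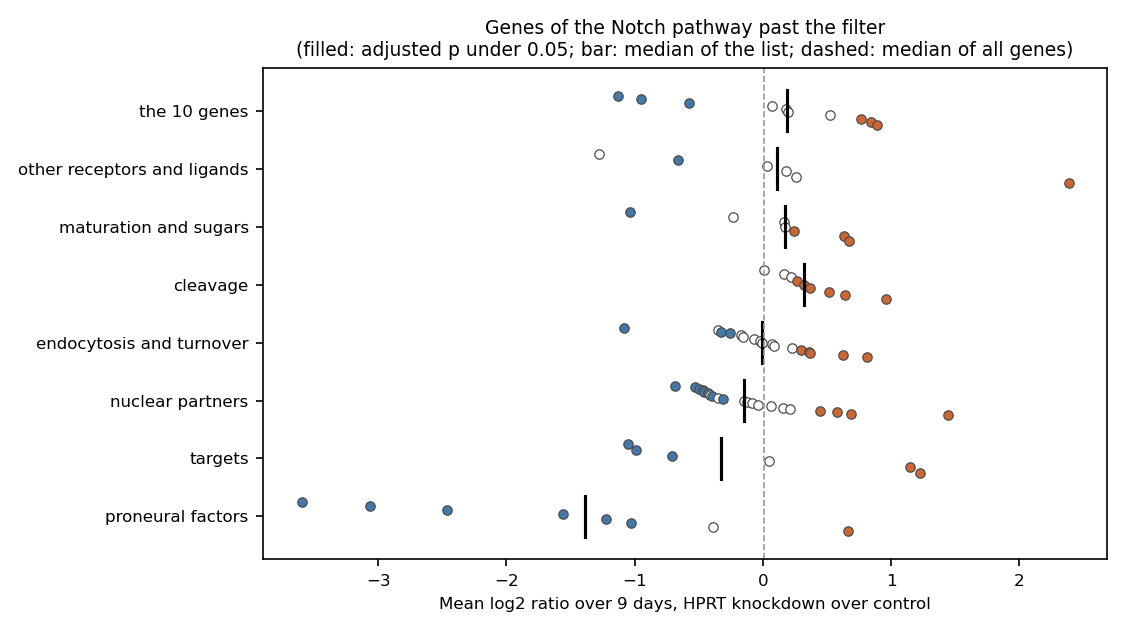
Mean log2 ratio over 9 days of each gene past the filter, by list, for the 10 Notch genes, the 6 other lists of the pathway and the proneural factors; filled circles passed the test (adjusted p under 0.05), the bar is the median of the list and the dashed line the median of all genes. The cleavage genes past the threshold all lie above 0, and 6 of the 8 proneural factors passed the threshold below 0.

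Markers of cell types moved between the lines too, and in bulk RNA fewer cells of a type cannot be told apart from less RNA per cell. Of all genes, 52.5% were called, 26.2% higher and 26.3% lower. The shares called in either direction were near that for progenitors and radial glia (55.6%), endothelial cells (50%) and the oligodendrocyte lineage (45.5%). All 10 pluripotency markers were lower in the knockdown line (median ratio -2.71). Of 12 neuron markers 7 were lower and 1 was higher (median -1.13). Of 8 astrocyte markers 6 were higher and 1 was lower (median 1.27), and of 11 markers of the oligodendrocyte lineage 5 were higher and none was lower (median 2.19). Of 9 markers of progenitors and radial glia 3 were higher and 2 lower (median 0.24). The lists of endothelial cells (0 higher and 4 lower of 8; median -0.70), mural cells (0 and 2 of 7; 0.17), fibroblasts and feeders (1 and 3 of 9; -0.43), endoderm (1 and 1 of 5; -0.51) and neural crest (0 and 1 of 5; -0.44) moved less evenly. Summed over the markers with recovered reads, the astrocyte list held 5273 to 13160.5 normalised reads in the control and 7023 to 18543 in the knockdown libraries. The neuron list held 4705 to 15845 and 3080 to 7844, and the pluripotency list 2145 to 7363 and 267 to 2681. These sums cover 7 of 8 listed astrocyte, 6 of 14 neuron and 4 of 10 pluripotency markers, so they are not levels of the whole lists. The part of these shifts in the ratios of the Notch genes was not tested.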

How the data were processed

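RNA-seq libraries (TruSeq v2, HiSeq 2000, 50 cycles) were aligned by the authors with ELAND in CASAVA 1.8.2 to NCBI37/mm9, counted per gene in Avadis NGS and normalized with DESeq. What the authors deposited are log2 values in 28 tables: 10 compare the lines within a day and 9 per line compare neighboring days, and each value is less the mean of the pair of libraries in its table. Genes at or below 1 normalised count enter at the floor, which understates the ratios of low genes. No source used here gives the lane of a library or whether counting used strand, and lanes were not examined.

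The members and lists were chosen with earlier results of these data known. Ratios were taken within the table of a day, and all 13608 genes were fitted with limma 3.58.1 in R 4.3.3. The typical level of a gene, used by the filter, was read from the rounding of the deposited values. Counts were recovered from the ratios as whole multiples of a 49th of a read, the unit that fitted: of values in genes under 200 reads, 34.9% were whole reads, against 1.64% that were multiples of 50 such parts. Reads were divided by size factors (0.782 to 1.52) to give normalised reads. In the consecutive-day table of control days 3 and 4 values disagreed with the other tables (median 0.04 log2), and it was not used for reads. On simulated tables of 9535 genes for the ratio of the lines, all genes changed by 1 log2 unit and 37.9% of those changed by 0.5 were called. There the change was constant over days and the added noise was the same for every gene. In the data the SD over days went from 0.30 (Dtx4) to 0.93 (Dll3) among the 10 genes. The simulated shares therefore do not carry over to genes with a wide spread, and Dlk1, at a mean of -1.28, did not pass. Lines were paired by day, and deviations of same-day libraries correlated with r between 0.01 (day 0) and 0.45. Named genes were the members, genes of the lists with 1 sign on 9 of 9 days and a mean ratio of at least 1 (at most 4 a list), 7 genes fixed by name, Hprt, and 3 similar genes each for 2 members; other genes of the lists were named after their values were seen, and some are not reported here.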

Additional observations from a re-analysis of the deposited data

Results flagged for a closer look

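Maml2 was singled out because the difference between the lines itself changed over the course: the slope of its ratio on day was -0.0844 log2 units per day (limma, adjusted p = 0.0159), and over the 15 alternatives the adjusted p ranged from 0.00884 to 0.0857, with 13 of 15 past the threshold. The ratio was 0.98 to 1.21 on days 0 to 4 and -0.13 to 0.83 on days 8 to 14, and was above 0 on 8 of 9 days. Both lines were checked for a day far from the others in 30 sets of 9 days (the ratio, the control reads and the knockdown reads of each of the 10 genes), and 0 sets held one, where chance gives about 1 in 20.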

How the results depend on the processing

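The ratio of the lines called 6 of the 10 genes, and 5 to 8 over the alternatives (6 to 8 with each day left out); of 188 values of single genes under the alternatives, 180 stayed on their side of the threshold, 7 passed only there (Notch2 and Notch3) and 1 was lost (Lfng with day 6 kept), and none changed direction while past the threshold. All genes called numbered 7141, and 6254 to 7265 with each day left out. Without the replicate block of days (unpaired) 7 of the 10 genes were called and 5699 of all genes, with Notch2 the one added call; the block changed no other call among the 10. By the exact sign-flip permutation test, two-sided, the same number of genes as in the paired fit passed (6).

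The slope of the ratio called 1 gene, but 3 with a stricter filter (log2 normalised count of at least 8), 0 with day 6 kept (1066 of all genes against 1911), 2 on log2(day + 1), 2 with ratios centered by exon length, and 0 to 2 with each day left out (605 to 1657 of all genes; Maml2 was lost without day 14). Late minus early called 0, and 1 with the stricter filter (Lfng); without a filter 143 of all genes were called against 325. The trend in the control line called 1 to 2 with each day left out (4621 to 6267 of all genes against 5933) and 3929 of all genes on log2(day + 1). The trend in the knockdown line called 0 on log2(day + 1) (127 of all genes against 1786) and 0 to 4 with each day left out (171 to 2959 of all genes). The causes of these changes were not tested. Jag2 lay under the stricter filter and lacks recovered reads in all libraries, so those alternatives gave it no value. With 1 library per line and day, a single day has no replicate; counting error gave its ratio a standard error of at most 0.20.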
